A study of Rattus norvegicus with 13 samples.

Results

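The muscle-type microRNAs (miRNAs) rno-miR-1-3p and rno-miR-499-5p, called miR-1-3p and miR-499-5p below, were followed across the kidneys of 13 rats. They are 2 of the 460 mature rat miRNAs in the deposited count table and were picked by name, with earlier results of these data known. The rats were female, of the inbred Wistar strain WAG/RijCmcr, 11 to 12 weeks old and about 155 g at irradiation, and all kidneys were taken on day 35. Control rats (n = 4) received 0 Gy and no drug. In the irradiated group (n = 4) the total dose was 13 Gy, given with a 320 kVp X-ray system at 1.75 Gy each minute in the partial-body arrangement named leg-out PBI, in which a single hind limb is kept out of the beam and shielded. The third group (n = 5) received the same 13 Gy and, from day 7, lisinopril in the drinking water at about 24 mg per square metre per day. Lisinopril inhibits angiotensin converting enzyme. Supportive saline (40 ml per kg per day, days 3 to 7) and enrofloxacin (10 mg per kg per day, to day 14) are described without separating the groups. Whole-kidney RNA was used, so fewer cells of a type and less RNA per cell cannot be told apart. No group shows the drug without irradiation.

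miRNAs are short RNAs that pair with messenger RNAs mainly through their seed, bases 2 to 8 from the 5′ end, and lower the output of those messengers. miR-1 is the classic miRNA of skeletal and heart muscle, where it restrains growth genes and favours the differentiated state, and it is made together with miR-133a from shared precursor transcripts. miR-499 is carried in an intron of Myh7b, a slow-type myosin heavy chain gene, and with the miR-208 miRNAs, carried by the heart myosin genes, belongs to a group that supports slow muscle fibres. Kidney is not a tissue either is known for.

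The mature sequences below, from RefSeq (build GRCr8), show how the members relate to the other muscle miRNAs; the seed is in capitals.
miR-1-3p: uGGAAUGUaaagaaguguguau
miR-1b: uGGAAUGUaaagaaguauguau
miR-206-3p: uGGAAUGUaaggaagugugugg
miR-499-5p: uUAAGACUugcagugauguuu
miR-208a-3p: aUAAGACGagcaaaaagc
miR-208b-3p: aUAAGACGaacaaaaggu
miR-499-3p: aACAUCACagcaagucugugcu
miR-133a-3p: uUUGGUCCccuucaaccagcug

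In the RefSeq table, miR-1-3p shared its whole seed with 2 other rat miRNAs, miR-1b and miR-206-3p. Counted from 1 at the 5′ end of miR-1-3p, miR-1b differs by G17A alone and miR-206-3p by A11G, A21G and U22G. The seed of miR-499-5p was shared with 0 other rat miRNAs over bases 2 to 8 and with 2, miR-208a-3p and miR-208b-3p, over bases 2 to 7. miR-1b, miR-206-3p and both miR-208 miRNAs are not analysed here. The members do not share a seed with each other. On GRCr8, miR-1-3p lies at chr18:2160339-2160360 on the minus strand, within the span of the protein-coding gene Mib1, as does miR-133a-3p. miR-499-5p lies at chr3:164570616-164570636 on the plus strand, within the span of Myh7b. The hairpin of miR-499 is shown because both of its arms, in capitals, were measured.
Mir499a: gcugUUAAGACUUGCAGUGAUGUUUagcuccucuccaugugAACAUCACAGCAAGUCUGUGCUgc

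Counts over rat mature miRNAs totalled 1194175 to 11095939 per library. Control rat 2 gave the shallowest library, with 37 rat miRNAs at 0 against 0 to 3 in the other libraries and 29.0% of its mature counts under names of other species (10.3% to 14.6% elsewhere). Values are given in CPM, the reads of a miRNA relative to the library size after TMM scaling. Since reads carried no molecular identifiers, counting intervals and floors (the CPM of 3 reads) cover counting error only. On a list of kidney epithelial miRNAs, chosen with earlier results of these data known, 12 of 12 were measured. Their summed level was 354200 to 746600 CPM per library. Much of it was miR-10a-5p, with means of 396300 CPM in control, 273000 CPM in irradiated and 362000 CPM in lisinopril-treated rats. Of 14 muscle miRNAs on the corresponding list, 4 were measured and all 4 were tested: both members, miR-499-3p and miR-133a-3p. Their summed level was 301 to 571 CPM in control, 209 to 303 CPM in irradiated and 203 to 253 CPM in lisinopril-treated rats.

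miR-499-5p was the abundant member. It ranked 112 of 460 rat miRNAs by mean level, whereas miR-1-3p ranked 406. In control rats 1 to 4 miR-499-5p stood at 273, 506, 249.6 and 231 CPM, a mean of 315 ± 129 CPM (SD, n = 4). In irradiated rats 1 to 4 it stood at 218, 146, 192 and 238 CPM, a mean of 198 ± 39.9 CPM (SD, n = 4). In lisinopril-treated rats 1 to 5 it stood at 153, 196, 169, 169.7 and 178 CPM, a mean of 173 ± 15.4 CPM (SD, n = 5). All 5 lisinopril-treated rats lay below all 4 controls, a separation seen in 31 of the 419 miRNAs tested (7.40%). Irradiated rats overlapped with controls through irradiated rat 4, and the other 3 lay below every control. Control rat 2 stood far above the other 3 controls, and the plot of levels by rat shows it alone at the top. The counts behind these values were 476 to 2589 reads, and counting error alone gave control rat 2 an interval of 462 to 554 CPM (95% exact Poisson), clear of the other controls.

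**Figure D1:**
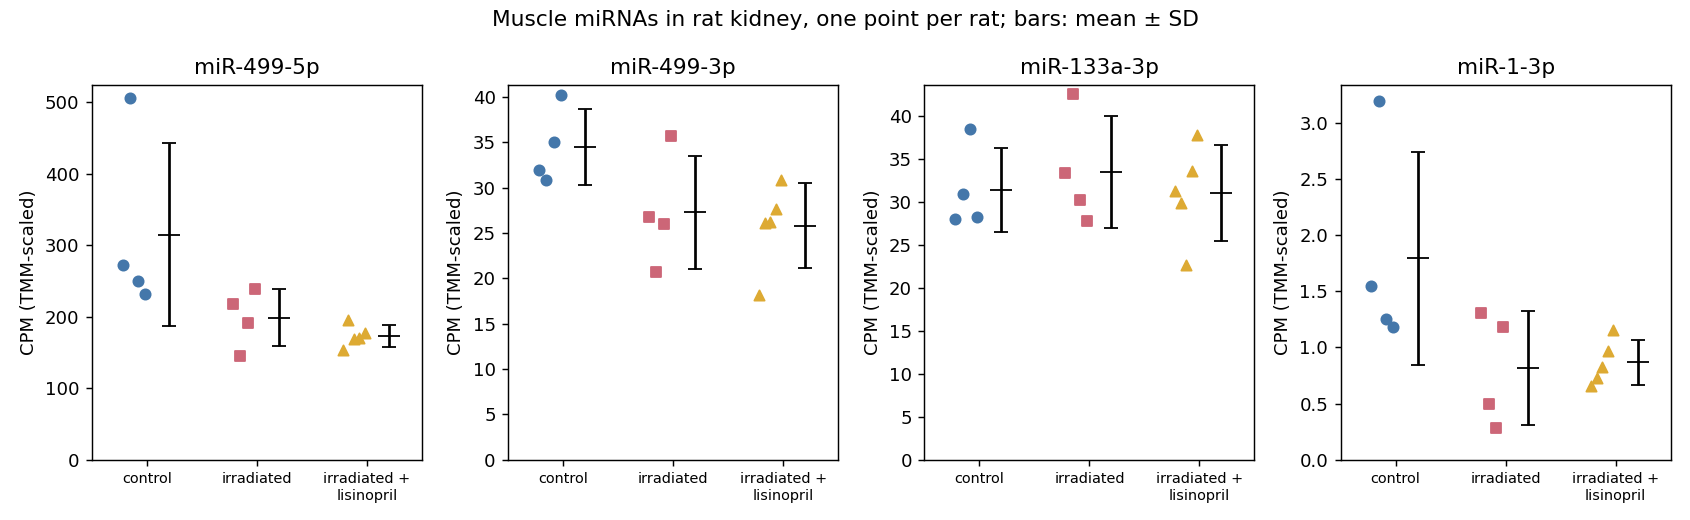
Level in CPM (y axis, starting at 0) of miR-499-5p, miR-499-3p, miR-133a-3p and miR-1-3p in each rat kidney (points) by group (x axis), with the group mean ± SD beside the points. All 5 lisinopril-treated rats lie below all 4 controls for miR-499-5p, miR-499-3p and miR-1-3p, as they do for 7.40% of all tested miRNAs. miR-133a-3p overlaps in every comparison, and control rat 2 is the highest point for miR-499-5p (506 CPM) and miR-1-3p (3.19 CPM).

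With irradiation and lisinopril together, miR-499-5p fell against control. Its log2 fold change was -0.85 (SE 0.21, 95% interval -1.30 to -0.405), a fitted level 0.554 times that of controls, and the quasi-likelihood test of edgeR gave an adjusted p = 0.0256 (Benjamini-Hochberg, across the 419 miRNAs tested). Permuting the log2 CPM values exactly between the groups, two-sided, gave p = 0.00794, the smallest that 5 against 4 allows. With the groups fully separated, that p largely restates the lack of overlap, and it was not adjusted over the 419 miRNAs. miR-499-5p was the single called member of the 2, where 5.49% of all tested miRNAs were called lower. With control rat 2 left out, the other 3 controls had a mean of 251 ± 20.8 CPM, and the fitted difference was -0.54 (adjusted p = 0.0485). The call was lost without lisinopril-treated rat 1 (adjusted p = 0.0576), 3 (0.073), 4 (0.0536) or 5 (0.0544), while the log2 fold change stayed between -0.81 and -0.86 in those fits.

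**Figure D2:**
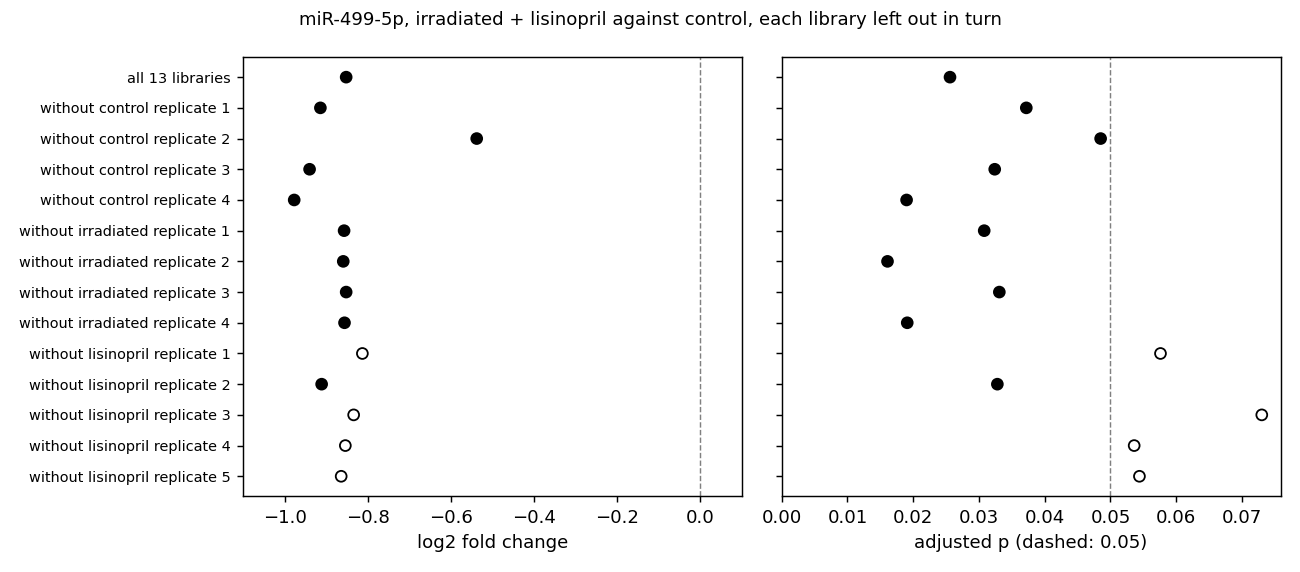
Log2 fold change (left) and adjusted p (right) of miR-499-5p between lisinopril-treated irradiated rats and controls, with all 13 libraries and with each left out in turn (rows); filled points are under the threshold of 0.05. The fold change is nearest to 0 without control replicate 2 (-0.54), and the 4 open points are fits without lisinopril replicates 1, 3, 4 and 5.

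Irradiation without the drug gave a smaller difference that did not pass. The log2 fold change of miR-499-5p was -0.66 (SE 0.22, 95% interval -1.13 to -0.18, adjusted p = 0.0949), and the exact permutation test gave p = 0.0571 where 0.0286 is the smallest possible. Without control rat 2 it was -0.34 (adjusted p = 0.287). It reached the threshold with DESeq2 (-0.66, adjusted p = 0.0495) and without irradiated rat 4 (-0.75, adjusted p = 0.048). Called miRNAs made up 1.67% of all tested in this comparison, and 0 of the 2 members was among them. Both comparisons share the 4 controls.

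Between irradiated rats with and without lisinopril, miR-499-5p did not differ beyond the spread between rats. The log2 fold change was -0.20 (SE 0.21, 95% interval -0.64 to 0.25, adjusted p = 0.65), so that a level 0.874 times as high was fitted with the drug. The edgeR test called 0 of 419 miRNAs here (0%), with 63 at an unadjusted p under 0.05 and 11 called by DESeq2. In order of level, control came first, then irradiated, then lisinopril-treated rats, and the neighbours in that order did not differ at the threshold. The SD was 40.8% of the mean in control, 20.1% in irradiated and 8.91% in lisinopril-treated rats. The control figure rests on control rat 2, since the other 3 controls had a mean of 251 CPM with an SD of 20.8 CPM.

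The opposite arm of the hairpin, miR-499-3p, is the strand usually discarded. It was at 31.9, 30.9, 35.0 and 40.2 CPM in control rats 1 to 4, a mean of 34.5 ± 4.20 CPM (SD, n = 4). Irradiated rats 1 to 4 had 26.7, 20.7, 25.95 and 35.7 CPM, and lisinopril-treated rats 1 to 5 had 18.2, 26.1, 26.3, 27.65 and 30.8 CPM. All 5 lisinopril-treated rats again lay below all controls, as for 7.40% of all tested miRNAs, the nearest by 30.83 against 30.85 CPM. Neither difference from control passed, at a log2 fold change of -0.43 with lisinopril (SE 0.18, adjusted p = 0.182) and of -0.35 without it (SE 0.19, adjusted p = 0.292). In control rat 2 this arm, with 29 reads, was not high.

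The ratio of the 2 arms accordingly set control rat 2 apart. miR-499-5p had 16.4 times the reads of miR-499-3p in that library and 5.75 to 8.55 times in the other 12. Between groups the log2 ratio passed in none of 3 two-sided exact permutation tests, chosen after the values were seen (p = 0.302 for lisinopril against control, 0.60 for irradiated against control, 0.444 between the irradiated groups, each 0.60 after Benjamini-Hochberg adjustment over the 3). An unequal change of the arms was thus not shown. Rows named after the human miR-499b, a miRNA encoded opposite miR-499a, held few reads beside miR-499-5p: hsa-miR-499b-3p had 8 to 35 per library, 0.755% to 1.87% of the reads of miR-499-5p, and hsa-miR-499b-5p had 0 to 13. miR-499-3p itself had 29 to 363 reads per library. The part of the miR-499b rows in the arm ratio was not tested.

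miR-1-3p was barely detected. Control rats 1 to 4 gave 12, 3, 13 and 10 reads, irradiated rats 1 to 4 gave 7, 4, 2 and 7, and lisinopril-treated rats 1 to 5 gave 4, 7, 8, 10 and 10, in all 97 reads. In CPM this was 1.54, 3.19, 1.25 and 1.18 in controls, a mean of 1.79 ± 0.946 (SD, n = 4). Irradiated rats had 1.31, 0.496, 0.279 and 1.18 CPM, a mean of 0.816 ± 0.505 (SD, n = 4). Lisinopril-treated rats had 0.654, 0.732, 0.827, 0.970 and 1.16 CPM, a mean of 0.868 ± 0.201 (SD, n = 5). Irradiated rats 2 and 3 were low, irradiated rat 4 (1.179 CPM) lay just under the lowest control (1.180 CPM), and irradiated rat 1 lay among the controls. Lisinopril-treated rats all lay below the lowest control, by 1.16 against 1.18 CPM at the nearest.

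The counting intervals were wider than these gaps. The 3 reads of control rat 2 equal the floor of that library and allow 0.658 to 9.33 CPM (95% exact Poisson interval), and the 2 reads of irradiated rat 3 lie under its floor of 0.419 CPM and allow 0.0338 to 1.01 CPM. With reads pooled over a group, the level was 1.38 CPM in control (0.976 to 1.89), 0.754 CPM in irradiated (0.461 to 1.17) and 0.881 CPM in lisinopril-treated rats (0.626 to 1.20), and the control interval overlapped both others. These pooled intervals cover counting error only and leave out the spread between rats. Their overlap is not a test of a difference between groups. Without control rat 2 the control mean was 1.33 ± 0.193 CPM (n = 3).

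**Figure D3:**
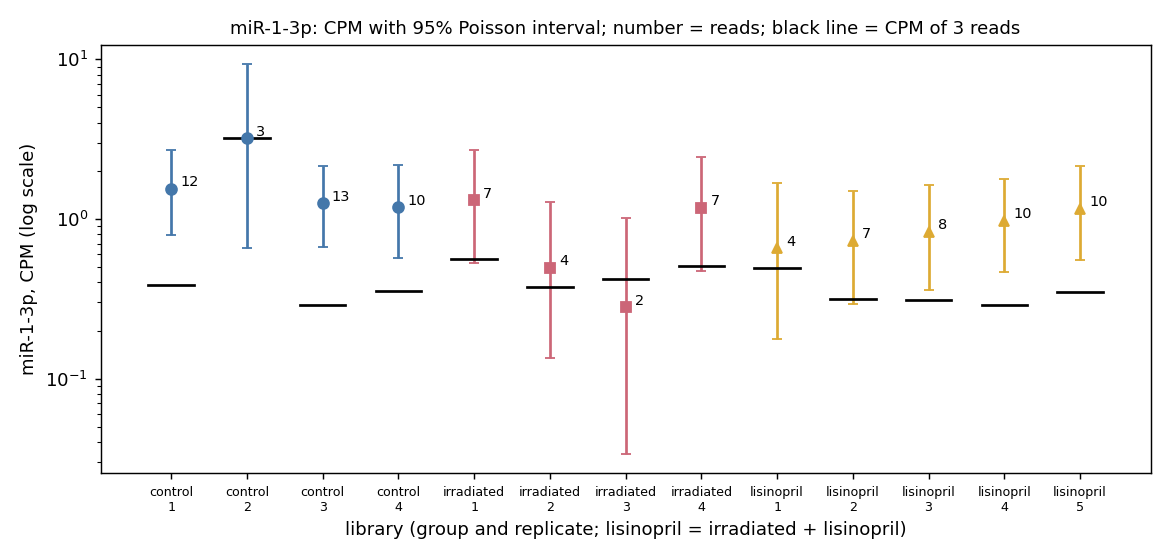
miR-1-3p in CPM on a log axis in each library (x axis), with 95% exact Poisson intervals, the number of reads beside each point and a black line at the CPM of 3 reads. The intervals overlap between the groups, control replicate 2 sits on its line with 3 reads, and irradiated replicate 3 sits under its line with 2 reads.

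No comparison of miR-1-3p passed. The log2 fold change was -0.88 (SE 0.42, 95% interval -1.77 to 0.02, adjusted p = 0.229) in irradiated rats against control and -0.69 (SE 0.37, 95% interval -1.48 to 0.10, adjusted p = 0.293) with lisinopril against control. Exact permutation tests gave p = 0.114 and p = 0.00794, the latter again the smallest possible and largely a restatement of the lack of overlap. Between the irradiated groups the log2 fold change was 0.18 (SE 0.40, 95% interval -0.68 to 1.05, adjusted p = 0.848), and its sign turned without irradiated rat 2 (-0.02) or 3 (-0.12) and with library totals as the scale (-0.01). In control against lisinopril-treated rats both members were without overlap, as were 7.40% of all tested miRNAs in that direction. Both also had a negative log2 fold change there, as had 180 of 419 miRNAs (43.0%, median 0.05), and both were negative in irradiated rats against control, as were 202 of 419 (48.2%, median 0.02).

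**Figure D4:**
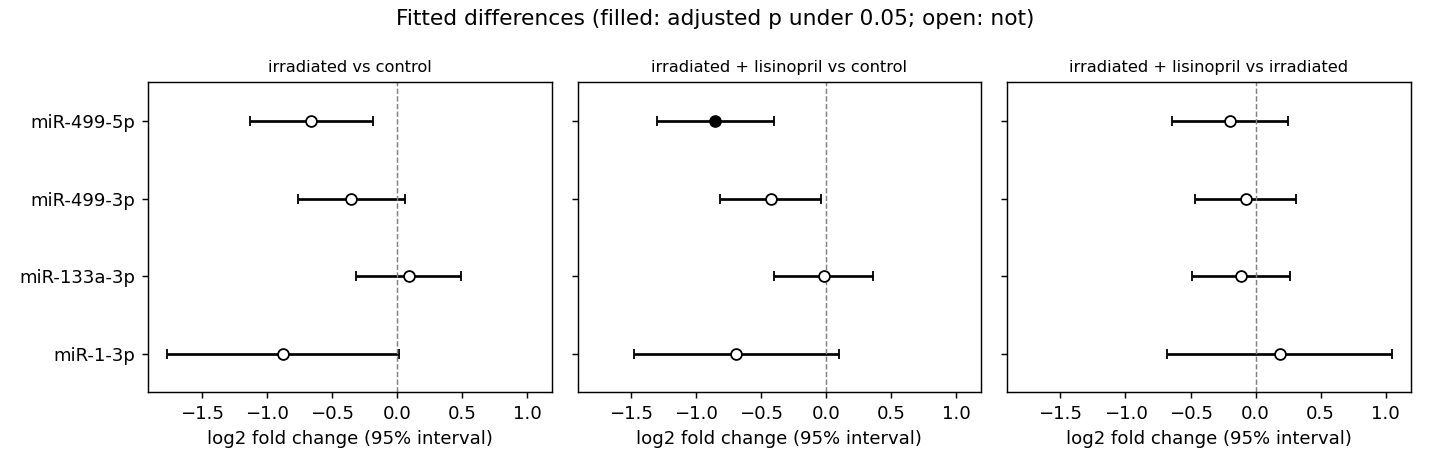
Log2 fold change with its 95% interval (x axis) of the 4 measured muscle miRNAs (rows) in the 3 comparisons (panels); filled points passed an adjusted p of 0.05. The single filled point is miR-499-5p with lisinopril against control (-0.85), and the widest intervals belong to miR-1-3p.

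miR-133a-3p, which shares precursors with miR-1, was at 27.9 to 38.5 CPM in control, 27.8 to 42.6 CPM in irradiated and 22.6 to 37.8 CPM in lisinopril-treated rats. Its group means were 31.4 ± 4.92, 33.4 ± 6.48 and 31.0 ± 5.56 CPM, and the groups overlapped throughout. Against control its log2 fold change stood at 0.09 in irradiated rats (SE 0.19, adjusted p = 0.801) and at -0.02 with lisinopril (SE 0.18, adjusted p = 0.974), and it stood at -0.11 (SE 0.18, adjusted p = 0.774) between the irradiated groups. In the RefSeq table miR-133b-3p differs from it by G22A alone, so the assignment of reads within that pair is uncertain. miR-133a-3p had 9.67 to 108 times the reads of miR-1-3p, and miR-499-5p 153 to 688 times, the highest of both in irradiated rat 3 with its 2 reads of miR-1-3p.

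Across the muscle list, 1 of 4 tested miRNAs was called lower with lisinopril against control (median log2 fold change -0.56, all 4 negative) and 0 passed in the other 2 comparisons. Of all tested miRNAs, 5.49% were called lower and 43.0% were negative with lisinopril against control. The 4 include both arms of miR-499, and miR-133a-3p was near 0 (-0.02). Smooth muscle miRNAs (4 of 4 measured, the miR-143 and miR-145 arms) summed to 26410 to 38140 CPM in control, 30720 to 36070 CPM in irradiated and 24800 to 52790 CPM in lisinopril-treated rats, and 0 of 4 passed in any comparison. Kidney epithelial miRNAs also gave 0 of 12. Their part in the level of miR-499-5p was not tested.

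The members followed each other from rat to rat. Over 13 libraries the log2 CPM of miR-1-3p and miR-499-5p correlated at Pearson r = 0.825 (permutation p = 0.00102, adjusted 0.00204) and Spearman rho = 0.83 (permutation p = 0.00075, adjusted 0.0015). With group means subtracted, r was 0.75 (permutation p = 0.00226) and rho 0.731 (permutation p = 0.00645), unchanged by adjustment over these 2 relations. The latter permutations moved values over all 13 libraries and not within groups, so these 2 p-values may be too small. Leaving out the 2 libraries farthest from the median of miR-499-5p gave r = 0.568 over 11 libraries (without control rats 1 and 2) and r = 0.63 with group means subtracted (without control rat 2 and irradiated rat 2). Both miRNAs come from the same libraries and share their depth and scaling, and the values of miR-1-3p rest on 2 to 13 reads.

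**Figure D5:**
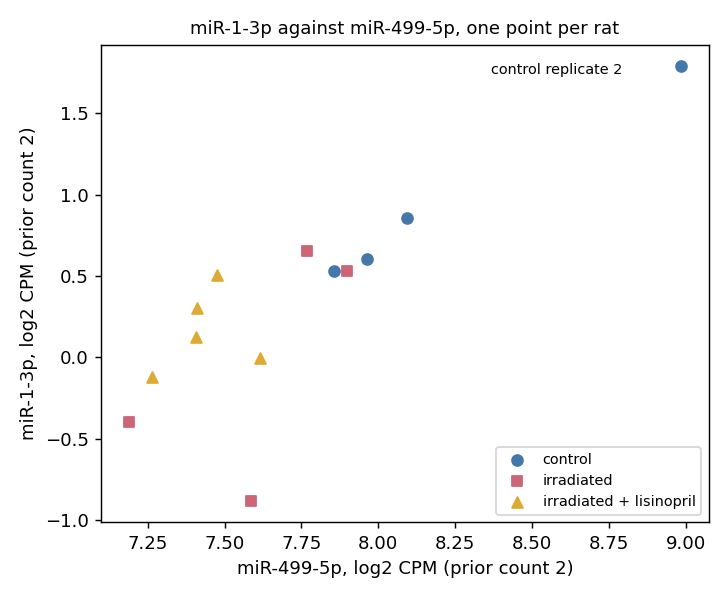
Log2 CPM (prior count 2) of miR-1-3p (y axis) against miR-499-5p (x axis), a point per rat, with shape and colour by group. Points run from low to high together, and control replicate 2 lies alone at the upper right.

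Described over the same 13 libraries, the tested miRNAs most like miR-499-5p were miR-223-5p (r = 0.932, rho = 0.868), miR-708-5p (0.913, 0.83), miR-379-5p (0.898, 0.648), miR-96-5p (0.893, 0.868) and miR-802-5p (0.888, 0.874). Those most like miR-1-3p were miR-19a-3p (r = 0.848, rho = 0.588), miR-802-5p (0.837, 0.896), miR-499-5p itself, miR-340-5p (0.815, 0.78) and miR-223-5p (0.807, 0.736). Some of these were scarce, with mean levels of 1.33 CPM for miR-223-5p, 3.80 CPM for miR-379-5p and 6.73 CPM for miR-802-5p. The floor in control rat 2 was 3.19 CPM. The others had means of 20.0 CPM (miR-708-5p), 20.4 CPM (miR-96-5p), 27.4 CPM (miR-19a-3p) and 156.8 CPM (miR-340-5p). The median r over all miRNAs was -0.02 for both members. Without control rat 2 the r values of the 5 most alike were 0.694 to 0.884 for miR-499-5p and 0.615 to 0.82 for miR-1-3p. miR-1-3p ranked 11 in likeness to miR-499-5p, and the r of the 2 members was 0.65 without control rat 2. The other arm of the hairpin, miR-499-3p, ranked 46 in likeness to miR-499-5p (r = 0.565, rho = 0.764), and its r rose to 0.798 without control rat 2. miR-133a-3p followed neither member (r = -0.175 with miR-499-5p and -0.09 with miR-1-3p).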

How the data were processed

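Total RNA from 13 kidneys was made into TruSeq small RNA libraries, per the labels' protocols. The submitters' processing notes name Trim Galore 0.2.5, Bowtie 1.1.1 and the rn4 genome. The assignment of reads among near-identical miRNAs is not given in the sources consulted, which matters for miR-1-3p and miR-133a-3p. The authors deposited whole-number read counts per miRNA, not normalized as far as the values show. Groups came from the group name in the labels, and rats were numbered in accession order. No litter, batch or pairing is named.

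The 460 rat mature miRNAs entered R 4.3.3 and edgeR 4.0.16. filterByExpr by group left 419. TMM gave scaling factors of 0.787 to 1.19. The quasi-likelihood model held the 3 group means and used all 13 libraries. Benjamini-Hochberg adjustment ran over the 419 miRNAs, and 0.05 was the threshold. Standard errors were taken from the fold change and its F statistic, and intervals from them with the fit's degrees of freedom. Log2 CPM used a prior count of 2. Permutation tests were two-sided, exact between groups and with 100000 resamples for correlations. The procedure was tested on simulated data. Both members and 415 of 460 rows had a sequence in RefSeq's table (GRCr8), matched by name. Coordinates on GRCr8 are those of that table, not of the alignment.

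The members and lists were chosen with earlier results of these data known. Named were the members, the measured muscle miRNAs, those sharing a seed with a member, the 5 most like each member by Pearson r and single markers of the lists. Alternatives were RLE size factors, library totals, library sizes without the most abundant miRNA, DESeq2 1.42.0, limma-voom (limma 3.58.1), a minimum mean level of 10 CPM, no filter on low counts, a robust dispersion, only the 2 groups compared, other-species miRNAs added, and each library left out. Values without control rat 2 in the likeness measure and the arm ratio tests were added after the data were seen. Of the remaining lists, erythroid (4 tested), leukocyte (5) and neural (1) miRNAs gave 0 calls in each comparison, and miR-122-5p, the liver marker, was not analysed here.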

Additional observations from a re-analysis of the deposited data

Results flagged for a closer look

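miR-499-5p in control rat 2 stood apart from the other controls, at 506 CPM against 273 CPM for the next and 231 CPM for the lowest. Of 12 groups of values examined (4 miRNAs in 3 groups) it was the single 1 set apart in this way; chance sets apart about 1 group in 20. That library was also the shallowest, with 1194175 counts, and its miR-499-3p (30.9 CPM) and miR-133a-3p (30.9 CPM) lay within the range of the other rats. Its miR-1-3p, at 3.19 CPM on 3 reads, was the highest of the 13 rats, against 1.54 CPM for the next. The part of depth in this value was not tested.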

How the results depend on the processing

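No paired analysis was run because the 13 kidneys came from different rats and the labels name no pairing. The call of miR-499-5p with lisinopril against control held under all 10 alternatives other than leaving out a library, with log2 fold changes from -0.91 to -0.72 and adjusted p from 0.00201 to 0.0436; over the 13 fits without a library they ranged from -0.98 to -0.54 (adjusted p 0.0161 to 0.073), and the call held in 9. For irradiated rats against control its log2 fold change was -0.66 and past the threshold with DESeq2 (adjusted p = 0.0495), -0.69 to -0.38 over 10 alternatives (adjusted p 0.0495 to 0.211) and -0.80 to -0.34 without a library (0.048 to 0.337). Between the irradiated groups it was -0.37 to -0.16 and -0.33 to -0.11, never past the threshold. miR-1-3p had no passing fit: -1.08 to -0.69 over 8 alternatives and -1.15 to -0.58 without a library for irradiated against control, -0.79 to -0.68 over 9 and -0.82 to -0.58 for lisinopril against control. Between the irradiated groups it reversed with library totals (-0.0125) and ranged from -0.118 to 0.449 without a library. It gave no value at a mean of at least 10 CPM, or with only the 2 groups compared in either comparison with the irradiated rats, since the filter removed it. DESeq2 gave it no adjusted p for irradiated against control or between the irradiated groups. Counts of called miRNAs moved more. Irradiated against control had 7 (2 higher, 5 lower), and 2 (2 and 0) with library totals, 37 (19 and 18) with DESeq2, 1 with only the 2 groups compared, 1 with other-species miRNAs added and 1 to 60 without a library. Lisinopril against control had 26, and 17 at 10 CPM, 40 (17 and 23) with only the 2 groups compared, 47 (10 and 37) with other-species miRNAs and 13 to 43 without a library. Between the irradiated groups there were 0, and 2 with RLE size factors, 2 with library totals, 2 at 10 CPM, 2 with limma-voom, 11 with DESeq2 and 0 to 47 without a library. Library totals as the scale moved the median log2 fold change of all miRNAs from 0.02 to 0.26 in irradiated rats against control and from -0.02 to -0.21 between the irradiated groups. The cause of these shifts was not tested. Depth limits miR-1-3p, whose 2 to 13 reads per library leave wide counting intervals that overlap between the groups.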
